A study of Mus musculus with 19 samples.

Results

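The genes described here code for methyltransferases that modify RNA or protein, in the liver of mice lacking Mat1a. They were chosen by gene symbol, as the numbered Mettl, Prmt, Trmt, Nsun and Ftsj genes together with Carm1, Pcmt1, Icmt, Lcmt1, Emg1 and Rnmt. The array annotation named 44 such genes, read by 71 probes. Of these, 41 passed the detection filter (detection p under 0.05 on at least 5 of 19 arrays) and are called the measured genes below, out of 10831 genes and unnamed probes that passed it in all. Fbl and Lcmt2, also sought by symbol, are not analysed here.

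RNA was read on Illumina BeadChips, arrays on which labelled RNA binds gene-specific probes on beads, with 1 array per mouse. The 5 KO SAMe mice were MAT1A knockouts given S-adenosylmethionine (SAMe) for 8 weeks. The 6 KO placebo mice were MAT1A knockouts given placebo, and the 8 WT placebo mice carried intact Mat1a and were given placebo. All were aged 10 months, and SAMe in WT mice is not analysed here. The labels used here give neither sex, strain nor dose. The p-values measure the spread between these animals. In whole liver, fewer cells of a type and less RNA per cell cannot be told apart.

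Methyltransferases move a methyl group from SAMe to a substrate and leave S-adenosylhomocysteine, which inhibits many of them. Mat1a codes for the subunit of the methionine adenosyltransferases that make SAMe in the adult liver, so these enzymes draw on a pool that the knockout is built to lower. On RNA, methyl groups mark messenger RNA caps and internal adenosines, stabilise and tune transfer RNA (tRNA), and help ribosomal RNA (rRNA) to fold. On proteins, arginine methylation acts on histones and RNA-binding proteins, and carboxyl methylation acts on the ends of phosphatases and of lipid-anchored signalling proteins.

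Mat1a itself averaged 9.64 ± 0.12 on the log2 intensity scale in KO SAMe livers (SD, n = 5), 9.52 ± 0.31 in KO placebo livers (SD, n = 6) and 12.12 ± 0.14 in WT livers (SD, n = 8). Per array, between 25.5% and 31.8% of the probes were detected, and arrays of 1 group correlated at 0.966 to 0.99. In 5 arrays the median raw signal was 93.6 to 100, against 75.1 to 85.8 in the other 14. These high-background arrays were 4 of the 6 KO placebo arrays and 1 of the 8 WT arrays. The animal IDs end in letters that the labels do not explain. KO SAMe IDs carry G, I or K, and the 8 WT IDs carry K. KO placebo IDs carry J (4 mice) or G (2 mice). Genotype and letter therefore cannot be told apart between the placebo groups. The J mice are the 4 KO placebo mice with high-background arrays, so letter and background cannot be told apart within that group. How precise the values below are is set by how many arrays each group holds and by the spread of each gene between animals.

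Without Mat1a, RNA of 11 of the 41 measured genes was lower and that of 4 was higher in KO placebo than in WT livers, at an adjusted p under 0.05 (limma, Benjamini-Hochberg over all 10831). Those counts are 26.8% and 9.76% of the measured genes, where 20.4% of all genes and probes tested were called lower and 19.8% higher. The median change of the 41 was -0.05 on the log2 scale, against 0.01 over everything tested. For 6 of the 41 the arrays of the groups did not overlap, as for 16.6% of all genes tested. The largest change of any of them was 0.901 in size, and 0 of the 41 changed by 2-fold or more in any comparison. These counts are for arrays normalized to 1 common distribution. With arrays matched by the median over all probes (all-probe scaling) 13 were called higher and 3 lower. With arrays matched by the median over detected probes that passed the filter (detected-probe scaling) 2 were higher and 18 lower. Of all 10831, 4012 were higher and 988 lower under the first, and 1786 higher and 4589 lower under the second. The median of all genes was 0.18 under the first and -0.20 under the second, and values given below for either scaling include that shift. Mettl2, Prmt1 and Trmt2b were called lower, and Icmt and Mettl17 higher, under both of them as well.

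**Figure D1:**
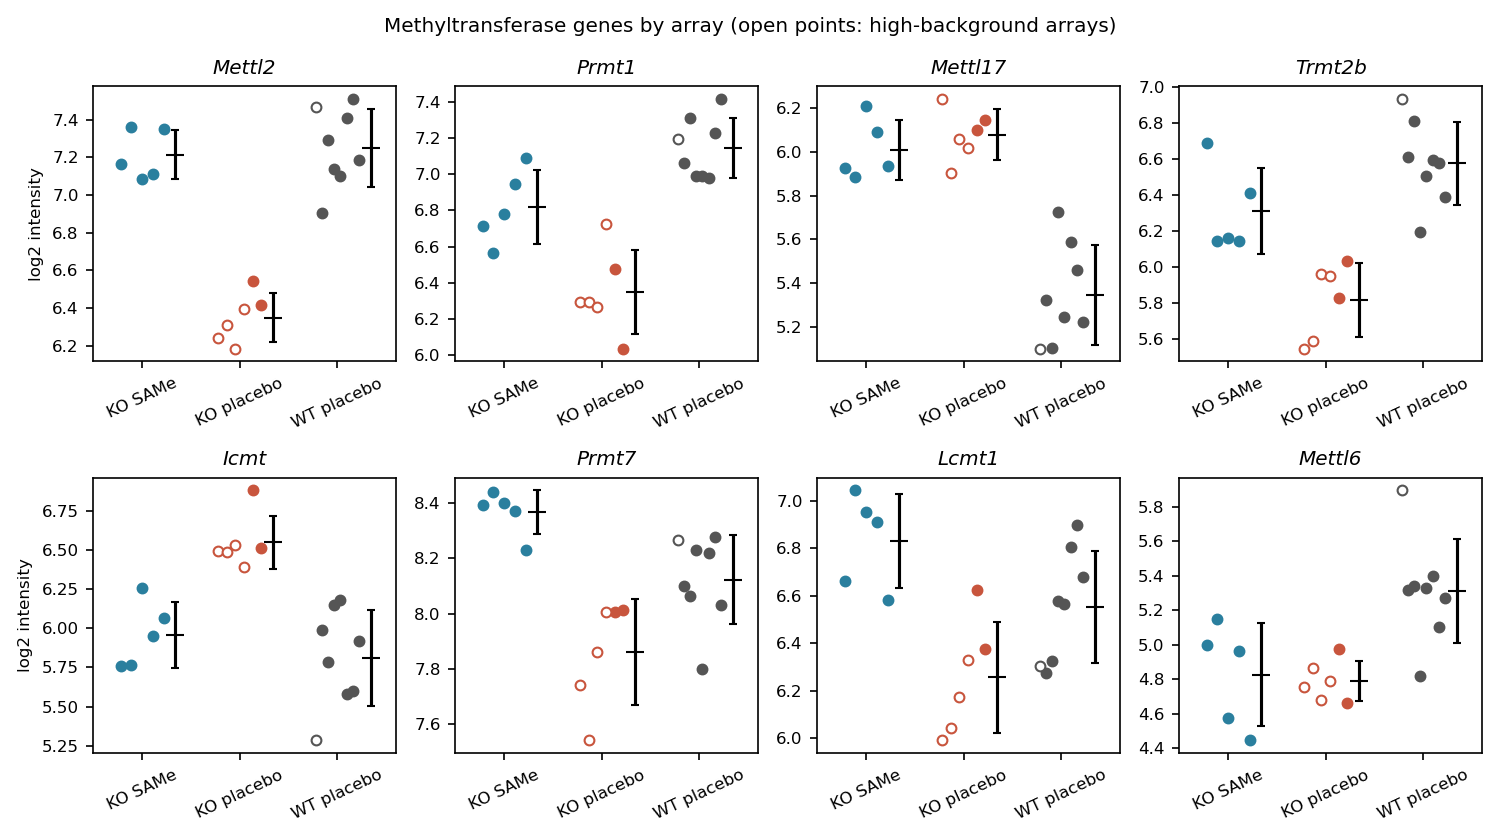
Log2 intensity (vertical axes, each with its own range) of the 8 genes called in at least 1 comparison with a log2 change of 0.5 or more, by group, with 1 point per array and black bars for the mean ± SD; open points are the high-background arrays. For Mettl2, Prmt1 and Trmt2b the 6 KO placebo arrays lie below every WT array, and for Icmt and Mettl17 above them.

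Among the 13 measured tRNA methyltransferases, 5 (38.5%) were lower in KO placebo than in WT livers, where 20.4% of everything tested was. The other 8 did not pass. Mettl2, which adds a methyl group to a cytidine in the anticodon loop of some tRNAs, changed by the most. Its log2 intensity was 7.09, 7.11, 7.16, 7.35 and 7.36 in the KO SAMe livers. In KO placebo livers it lay between 6.18 and 6.54 (median 6.35), and in WT livers between 6.90 and 7.51 (median 7.24). Every KO placebo array was below every array of the other groups, and the KO SAMe arrays lay inside the WT range. The change in KO placebo against WT livers was -0.90 (SE 0.10, limma adjusted p = 3.6e-07), which is 1.87-fold lower. A dimmer Mettl2 probe, detected on 11 arrays, was at -0.12 and did not pass.

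Trmt2b is the enzyme that makes methyluridine in mitochondrial tRNA. Its values were 6.14, 6.15, 6.16, 6.41 and 6.69 in KO SAMe livers, 5.55 to 6.03 in KO placebo livers (median 5.89) and 6.19 to 6.93 in WT livers (median 6.59). The KO placebo arrays were below all others, and 3 of the KO SAMe arrays were below the lowest WT array. In KO placebo against WT livers Trmt2b fell 1.69-fold (log2 -0.76, SE 0.12, limma adjusted p = 2.8e-05). Its other probe changed by -0.34 and also passed.

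Mettl6 methylates the same kind of cytidine in serine tRNAs. Its values were 4.45, 4.58, 4.96, 5.0 and 5.15 in KO SAMe livers, 4.66 to 4.97 in KO placebo livers (median 4.78) and 4.82 to 5.90 in WT livers (median 5.32). Both KO groups were low, and their arrays overlapped the lower end of the WT range. The probe was detected on 4 of 5 KO SAMe, 6 of 6 KO placebo and 8 of 8 WT arrays. The change in KO placebo against WT livers was -0.52 (SE 0.13, limma adjusted p = 0.003). Under all-probe scaling it was -0.24 (limma adjusted p = 0.15), or -0.41 relative to the median of all genes, and did not pass. The call also ended on the low-background arrays alone.

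Nsun2, which makes methylcytosine in tRNA, and Ftsj1, which methylates a ribose in the anticodon loop, were called lower by smaller amounts. Nsun2 averaged 4.63 ± 0.27 in KO SAMe, 4.57 ± 0.18 in KO placebo and 4.89 ± 0.13 in WT livers (SD), and was detected on 3 of 5, 4 of 6 and 8 of 8 of those arrays. Its change in KO placebo against WT livers was -0.33 (SE 0.11, limma adjusted p = 0.017). Ftsj1 averaged 5.62 ± 0.18 in KO SAMe, 5.33 ± 0.14 in KO placebo and 5.65 ± 0.21 in WT livers (SD) and also changed by -0.33 (adjusted p = 0.013), although all-probe scaling gave 0.06. The 8 tRNA genes that did not pass had changes between -0.31 (Trmt2a, adjusted p = 0.097) and 0.24 (Trmt1l, adjusted p = 0.21). They include Trmt1, Trmt10a and Trmt61a, which methylate purines of tRNA, and Mettl1, which with Wdr4 makes methylguanosine in the variable loop.

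Of the 5 measured genes of rRNA methylation and ribosome assembly, Mettl17 was higher and Nsun4 lower in KO placebo than in WT livers. Mettl17, a mitochondrial protein needed to assemble the small subunit of the mitochondrial ribosome, had values of 5.89, 5.93, 5.93, 6.09 and 6.21 in KO SAMe livers. In KO placebo livers it lay between 5.90 and 6.24 (median 6.08) and in WT livers between 5.10 and 5.73 (median 5.28). All arrays of both KO groups were above all WT arrays, and the KO groups overlapped each other. The change in KO placebo against WT livers was 0.73 (SE 0.10, limma adjusted p = 6.1e-06), or 1.66-fold higher. Its other probe changed by 0.33 (adjusted p = 0.022).

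Nsun4, which methylates the small mitochondrial rRNA, averaged 8.05 ± 0.10 in KO SAMe, 7.90 ± 0.14 in KO placebo and 8.16 ± 0.10 in WT livers (SD). It changed by -0.26 in KO placebo against WT livers (SE 0.08, limma adjusted p = 0.011), with 0.04 under all-probe scaling. Emg1, which methylates a pseudouridine of the small cytosolic rRNA, spread widely in KO SAMe and WT livers and did not pass. Its values were 4.84 to 6.10 in KO SAMe, 5.25 to 5.61 in KO placebo and 5.10 to 6.49 in WT livers. Nsun5, a methyltransferase of the large cytosolic rRNA, and Trmt112, an activating partner shared by several methyltransferases, were at 0.06 and -0.05 and did not pass.

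Among the 7 protein arginine methyltransferases, 3 (42.9%) were lower and 1 (14.3%) higher in KO placebo than in WT livers, with a median change of -0.26. Of everything tested, 20.4% was lower and 19.8% higher. Prmt1, the main enzyme of asymmetric arginine dimethylation, had values of 6.56, 6.71, 6.78, 6.95 and 7.09 in KO SAMe livers. It lay between 6.04 and 6.72 in KO placebo livers (median 6.29) and between 6.98 and 7.42 in WT livers (median 7.13). No KO placebo array reached the lowest WT array, and the KO SAMe values stood between the groups and overlapped both. The change in KO placebo against WT livers was -0.80 (SE 0.11, limma adjusted p = 5.5e-06), which is 1.74-fold lower.

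Prmt7, which adds single methyl groups to arginine, had values of 8.23, 8.37, 8.39, 8.40 and 8.44 in KO SAMe livers, 7.54 to 8.01 in KO placebo livers (median 7.93) and 7.80 to 8.28 in WT livers (median 8.16). The KO SAMe arrays were above all KO placebo arrays, and the KO placebo and WT ranges overlapped. Prmt7 changed by -0.26 in KO placebo against WT livers (SE 0.09, limma adjusted p = 0.028). That call ended without KO placebo replicate 1 or 2 or WT replicate 7, and under all-probe scaling the value was 0.04, or -0.14 relative to the median of all genes.

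Prmt5, the main enzyme of symmetric arginine dimethylation, was called lower by 1 of its probes at -0.34 (adjusted p = 0.044), while a second probe detected on all 19 arrays was at 0.29 and did not pass. The call on the first probe held in 7 of the 19 fits that each left out 1 array, and all-probe scaling gave 0.07. Carm1, an arginine methyltransferase of histone H3 and transcriptional coactivators, was called higher at 0.24 (adjusted p = 0.024), with detection on 5 of 5 KO SAMe, 6 of 6 KO placebo and 2 of 8 WT arrays. Its change was -0.02 under detected-probe scaling, and the call ended without KO placebo replicate 4 or WT replicate 6. Prmt6 (-0.29, adjusted p = 0.086), Prmt3 (0.17) and Prmt2 (0.25) did not pass.

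Of the 3 carboxyl methyltransferases, Icmt was higher in KO placebo than in WT livers, and the brightest probes of Lcmt1 and Pcmt1, which stand for these genes, did not pass. Icmt methylates the prenylated cysteine at the end of Ras-like proteins. Its values were 5.76, 5.76, 5.95, 6.07 and 6.26 in KO SAMe livers, 6.39 to 6.88 in KO placebo livers (median 6.50) and 5.29 to 6.18 in WT livers (median 5.85). The KO placebo arrays were above all arrays of the other groups, which overlapped each other. Icmt was 1.67-fold higher in KO placebo than in WT livers (log2 0.74, SE 0.13, limma adjusted p = 8.9e-05).

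Lcmt1, which methylates the last leucine of the catalytic subunit of protein phosphatase 2A, had values of 6.58, 6.66, 6.91, 6.95 and 7.04 in KO SAMe livers, 5.99 to 6.62 in KO placebo livers (median 6.25) and 6.27 to 6.90 in WT livers (median 6.57). In KO SAMe livers 3 arrays were above every array of the other groups, and every pair of groups overlapped. In KO placebo against WT livers it was at -0.30 and did not pass (adjusted p = 0.053), while its second probe, detected on all 19 arrays, changed by -0.34 and passed (adjusted p = 0.036). Pcmt1, which repairs damaged aspartyl residues, was at -0.04 and did not pass on its bright probe, while a dim probe detected on 15 arrays changed by -0.48 and passed (adjusted p = 0.005).

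None of the messenger and small nuclear RNA methyltransferases passed the test. Mettl3 and Mettl14, the catalytic and RNA-binding subunits of the writer of N6-methyladenosine (m6A), were at 0.00 and -0.18 in KO placebo against WT livers. Mettl4, an adenosine methyltransferase of small nuclear RNA, and Rnmt, which methylates the cap guanosine, were at 0.05 and 0.03. In limma 0 of these 4 genes passed in any of the 3 comparisons, and 0 had an unadjusted p under 0.05 in any of them. Rnmt was detected on only 2 of 5 KO SAMe, 3 of 6 KO placebo and 3 of 8 WT arrays.

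The remaining calls between the placebo groups were Mettl18, Mettl7b and Mettl26. Mettl18, a histidine methyltransferase of a ribosomal protein, averaged 4.68 ± 0.24 in KO SAMe, 4.55 ± 0.16 in KO placebo and 4.90 ± 0.12 in WT livers (SD), and changed by -0.35 in KO placebo against WT livers (limma adjusted p = 0.0062). It was detected on 3 of the 6 KO placebo arrays. Mettl7b, a thiol methyltransferase of the endoplasmic reticulum and lipid droplets, averaged 9.47 ± 0.23 in KO SAMe, 9.93 ± 0.45 in KO placebo and 9.49 ± 0.26 in WT livers (SD). It was called higher in KO placebo than in WT livers at 0.45 (limma adjusted p = 0.03), and in 12 of the 19 fits that left out 1 array. On the low-background arrays alone its change was -0.03. In KO placebo livers it averaged 10.21 on the 4 high-background arrays, all of J mice, and 9.39 on the 2 others, both of G mice. Background and letter cannot be told apart there. The call also ended under detected-probe scaling. Mettl26, whose substrate is left unnamed here, changed by -0.36 (adjusted p = 0.011). The histidine methyltransferase Mettl9 and the lysine methyltransferase Mettl22 did not pass, at 0.20 and -0.23. Mettl25, Mettl27, Nsun7 and Trmt9b, which are put in no role here, were between -0.16 and 0.03 and did not pass.

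**Figure D2:**
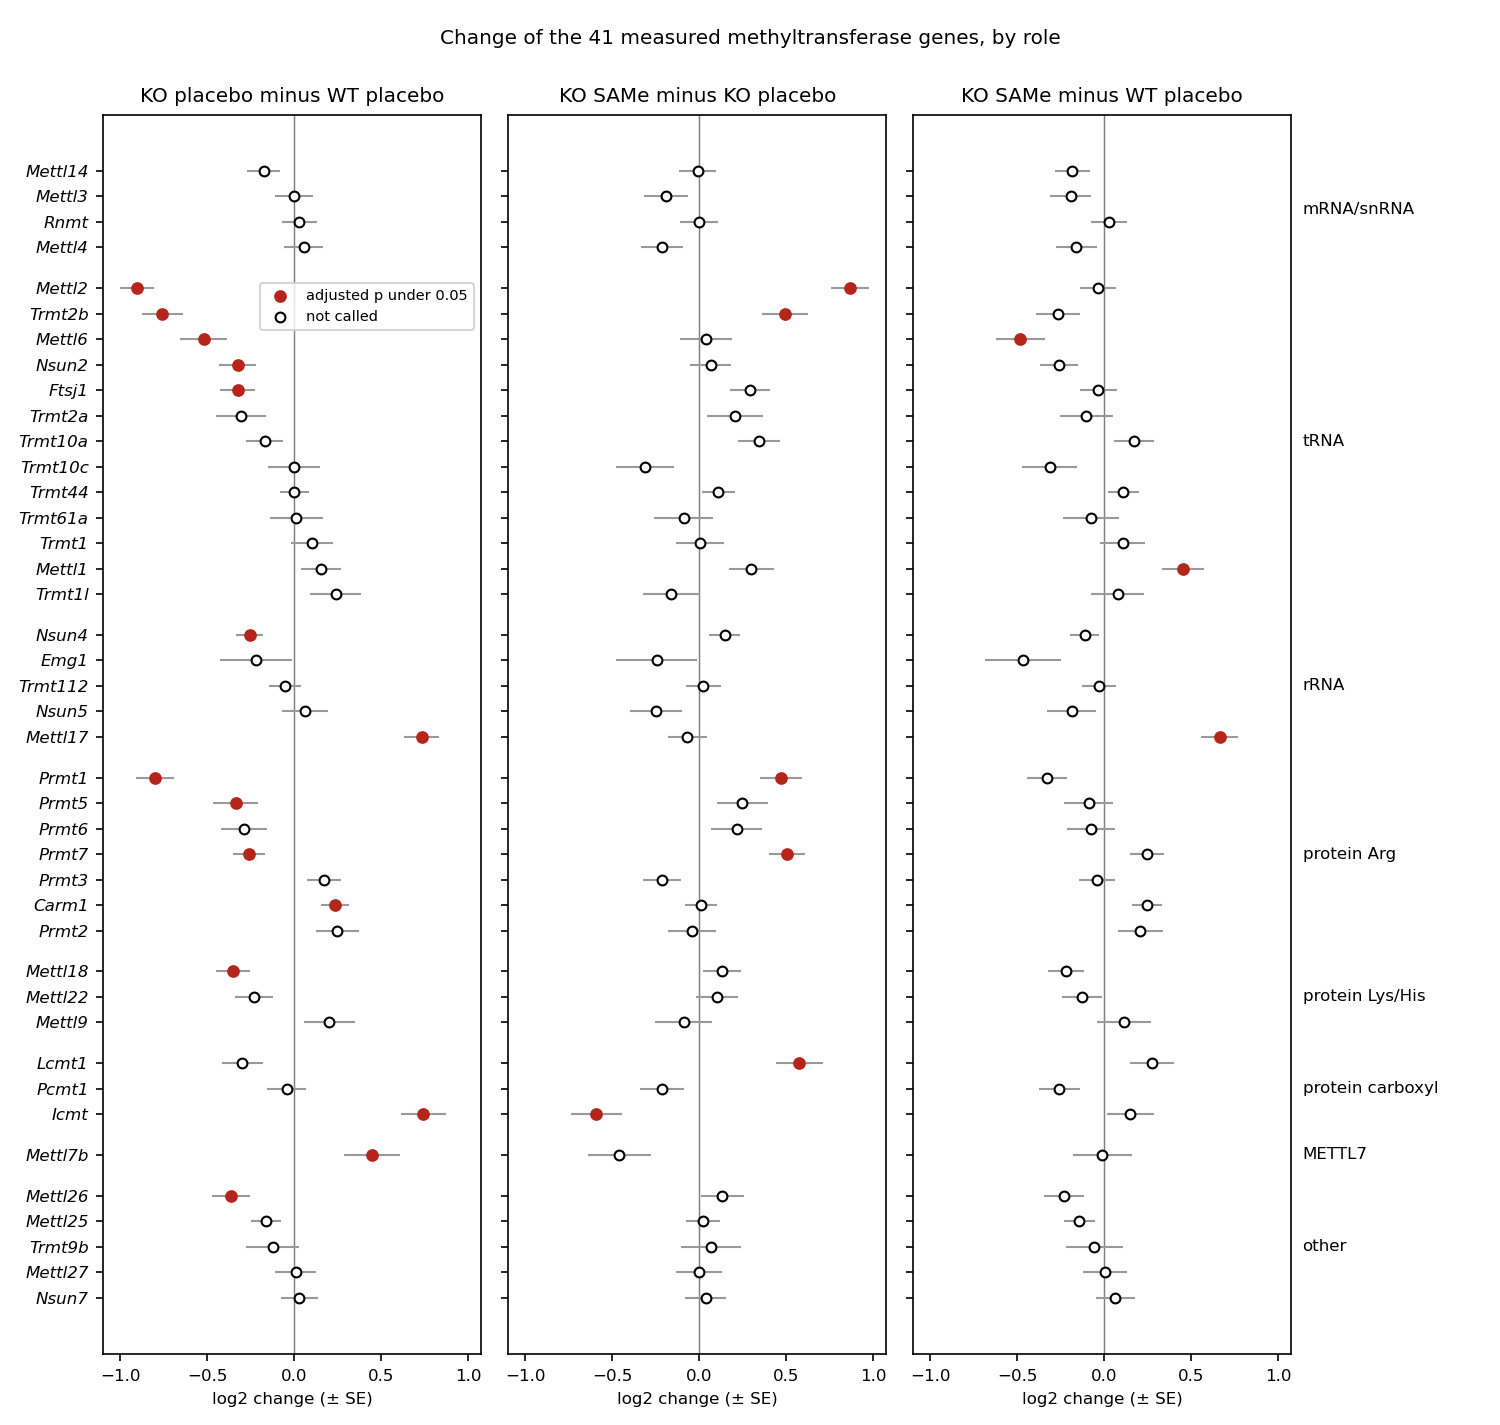
Log2 change (horizontal axes, points with SE bars) of the 41 measured genes, grouped by role, in KO placebo minus WT placebo (left), KO SAMe minus KO placebo (middle) and KO SAMe minus WT placebo (right); filled points have an adjusted p under 0.05. The 5 called tRNA genes lie left of 0 in the left panel, where Ftsj1 turns to 0.06 under all-probe scaling, and Mettl2, Prmt1, Trmt2b, Prmt7 and Lcmt1 lie right of 0 in the middle panel.

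Some of these calls did not hold in fits that took the high-background arrays into account, and the cause was not tested. In KO placebo livers those are the arrays of the J mice, so these fits cannot tell background from letter there. When the background sets were fitted as a block, 3 of the 41 genes were higher and 8 lower, against 1969 and 1957 of all 10831 tested. In that fit Mettl26, Mettl7b, Nsun2, Nsun4, Prmt5 and Prmt7 no longer passed. On the low-background arrays alone, 2 KO placebo against 7 WT, 2 genes were higher and 4 lower, against 1000 and 969 of all 10831. There Mettl2 changed by -0.74, Prmt1 by -0.88, Trmt2b by -0.59, Mettl18 by -0.45, Icmt by 0.81 and Mettl17 by 0.74, all past the threshold. The letter of the animal ID was also fitted as a term, and no call between the placebo groups is read from that fit. The placebo groups share no letter, so that fit links them through the KO SAMe mice, of which 1 carries G. Whether these calls hold within a letter cannot be told from it.

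In knockout mice given SAMe, RNA of 5 of the 41 genes was higher and that of 1 lower than in knockout mice given placebo. In KO SAMe against KO placebo livers, Mettl2, Prmt1, Trmt2b, Prmt7 and Lcmt1 were called higher and Icmt lower. These 5 and 1 of 41 are 12.2% and 2.44% of the measured genes, where 10.8% of all genes and probes tested were called higher and 7.69% lower. The median change of the 41 was 0.02, against -0.00 over everything tested, and the groups did not overlap for 4 of them, as for 8.97% of all genes tested. This comparison shares its KO placebo arrays with the one against WT, so the changes in both are not independent measurements.

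Mettl2 was 1.82-fold higher in KO SAMe than in KO placebo livers (log2 0.87, SE 0.11, limma adjusted p = 0.00024). Prmt7 was 1.42-fold higher (log2 0.50, SE 0.10, adjusted p = 0.0023), and a second Prmt7 probe changed by 0.51 (adjusted p = 0.021), while its dimmest probe, detected on 15 arrays, was at -0.02. Trmt2b was 1.41-fold higher (log2 0.49, SE 0.13, adjusted p = 0.014), while its second probe was at 0.17 and did not pass. For Mettl2, Prmt7 and Trmt2b each KO SAMe array was above every KO placebo array. Lcmt1 was 1.49-fold higher (log2 0.57, SE 0.13, adjusted p = 0.0056), with 0.51 on its second probe (adjusted p = 0.015). Prmt1 was 1.39-fold higher (log2 0.47, SE 0.12, adjusted p = 0.01). For Lcmt1 and Prmt1 the arrays of the groups overlapped. With the background sets as a block, Trmt2b (0.53, limma adjusted p = 0.0504) and Lcmt1 (0.35, adjusted p = 0.14) no longer passed, while Mettl2, Prmt1 and Prmt7 did. Mettl1 (0.55, adjusted p = 0.018) was called higher and Nsun5 (-0.53, adjusted p = 0.043) lower, as well as Icmt (-0.84). Of all 10831 tested, 521 were higher and 482 lower in that fit.

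Icmt was 1.51-fold lower in KO SAMe than in KO placebo livers (log2 -0.59, SE 0.14, limma adjusted p = 0.0071), with no overlap between the groups. A dimmer Icmt probe, detected on 10 arrays, lay on the other side of 0 at 0.28 (adjusted p = 0.050), and the mean of both probes was at -0.16 and did not pass. Mettl17 and Mettl6, which differed between the placebo groups, were at -0.07 and 0.04 with SAMe and did not pass. The second Mettl17 probe lay on the other side of 0 at 0.36 (limma adjusted p = 0.052). Under all-probe scaling the first Mettl17 probe was called lower at -0.50 (limma adjusted p = 0.0091), or -0.29 relative to the median of all genes. Trmt10a (0.34, adjusted p = 0.051), Ftsj1 (0.29, adjusted p = 0.081) and Mettl7b (-0.46, adjusted p = 0.08) also did not pass.

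By role, 2 of the 13 tRNA genes (15.4%) and 2 of the 7 arginine methyltransferases (28.6%) were higher with SAMe, where 10.8% of everything tested was. The median changes of these roles were 0.11 and 0.21, and the rest of both groups did not pass. Under all-probe scaling, where the median of all genes was -0.21, 1 of the 41 was called higher (Mettl2) and 11 lower. Under detected-probe scaling, where that median was 0.16, 10 were higher and 1 lower. Of all 10831, 202 were higher and 3153 lower under the first, and 2608 higher and 884 lower under the second. On the low-background arrays alone, 5 KO SAMe against 2 KO placebo, 35 of all 10831 were called higher and 41 lower. Mettl2 was among those called higher (0.73, limma adjusted p = 0.0497). The other 5 genes called on all arrays were not called there, with Prmt1 at 0.56, Trmt2b at 0.38, Prmt7 at 0.36, Lcmt1 at 0.33 and Icmt at -0.74. When the letter was fitted as a term, the comparison rested on letter G alone, with 1 KO SAMe and 2 KO placebo mice. Whether these calls hold within a letter cannot be told from that fit.

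The promoters of Prmt1, Trmt2b and Prmt7 are shown because, with Mettl2, these genes were called lower in KO placebo than in WT livers and higher in KO SAMe than in KO placebo livers. Mettl2 is not among the promoter entries used here. The sequences are the 250 bases before the gene start in RefSeq, build GRCm38.p6, read 5′ to 3′ on the strand of the gene. Capitals mark 3 motifs searched on both strands: the E-box CACGTG, the CCAAT box CCAAT and the GC box GGGCGG.
Prmt1, chr7:44986421-44986670, minus strand: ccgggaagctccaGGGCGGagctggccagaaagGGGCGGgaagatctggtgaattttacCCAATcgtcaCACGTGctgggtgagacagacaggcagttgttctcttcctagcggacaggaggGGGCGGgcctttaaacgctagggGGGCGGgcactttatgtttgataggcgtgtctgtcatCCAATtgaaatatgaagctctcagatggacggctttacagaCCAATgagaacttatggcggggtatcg
Trmt2b, chrX:134276985-134277234, minus strand: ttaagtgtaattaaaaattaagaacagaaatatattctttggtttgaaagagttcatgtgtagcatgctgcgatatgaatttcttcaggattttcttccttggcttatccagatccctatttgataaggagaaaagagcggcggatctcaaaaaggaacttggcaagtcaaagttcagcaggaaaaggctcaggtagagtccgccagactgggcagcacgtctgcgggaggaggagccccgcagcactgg
Prmt7, chr8:106210804-106211053, plus strand: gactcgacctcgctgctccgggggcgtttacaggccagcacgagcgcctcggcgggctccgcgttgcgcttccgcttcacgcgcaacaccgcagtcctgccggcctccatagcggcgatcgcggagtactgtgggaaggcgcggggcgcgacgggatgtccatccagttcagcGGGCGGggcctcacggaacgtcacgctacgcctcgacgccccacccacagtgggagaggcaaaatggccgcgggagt

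The Prmt1 promoter held 1 E-box, 3 CCAAT boxes and 4 GC boxes, none of which overlapped another. The E-box began 181 bases before the gene start, the CCAAT boxes 191, 68 and 27 bases before it, and the GC boxes 237, 217, 128 and 105 bases before it. The Prmt7 promoter held 1 GC box, 77 bases before the start, and these letters do not occur in the Trmt2b window. Of 27025 promoters of this length, 6.05% held the E-box, 34.5% the CCAAT box and 32.9% the GC box. CpG dinucleotides numbered 13 in the Prmt1, 7 in the Trmt2b and 35 in the Prmt7 promoter, against a median of 6 over all promoters (quartiles 2 and 16) and 17 over the 34 measured genes with an entry. A match is a description of the letters, and binding was not measured.

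Between SAMe-treated knockout and WT livers few of these genes passed the adjusted threshold. In limma 12 of the 41 had an unadjusted p under 0.05, as did 3256 of all 10831. In KO SAMe against WT livers Mettl17 and Mettl1 were called higher and Mettl6 lower. These 2 and 1 of 41 are 4.88% and 2.44% of the measured genes, where 9.49% of all genes and probes tested were called higher and 8.09% lower. The median change of the 41 was -0.06, against -0.00 over everything tested, and the groups did not overlap for 2 of them, as for 6.16% of all genes tested.

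Mettl17 was 1.58-fold higher in KO SAMe than in WT livers (log2 0.66, SE 0.11, limma adjusted p = 0.00018), and its second probe changed by 0.69 and also passed. Mettl6 was 1.4-fold lower (log2 -0.48, SE 0.14, adjusted p = 0.02), a call that ended without KO SAMe replicate 3 or 5. Mettl1 had values from 6.0 to 6.38 in KO SAMe livers (median 6.24), 5.47 to 6.18 in KO placebo livers (median 5.95) and 5.33 to 5.97 in WT livers (median 5.78). Each KO SAMe array was above every WT array for Mettl1, and the KO placebo range overlapped both. Its change in KO SAMe against WT livers was 0.45 (SE 0.12, adjusted p = 0.013), with 0.34 on its second probe (adjusted p = 0.046). Its changes against KO placebo livers and between the placebo groups, 0.30 and 0.15, did not pass.

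For the 6 genes called between the knockout groups, the KO SAMe level did not pass the threshold against WT on the probe that stands for the gene. Mettl2 differed by -0.04 (adjusted p = 0.86), Icmt by 0.15 (adjusted p = 0.51), Lcmt1 by 0.28 (adjusted p = 0.14), Trmt2b by -0.27 (adjusted p = 0.16) and Prmt7 by 0.24 (adjusted p = 0.09). The dimmer Icmt probe, however, was higher in KO SAMe than in WT livers (0.59, adjusted p = 0.00014), as was the second Prmt5 probe (0.38, adjusted p = 0.042), and the dim Pcmt1 probe was lower (-0.45, adjusted p = 0.028). Prmt1 differed by -0.33 (SE 0.11, adjusted p = 0.051) and passed under 5 of the alternative settings, with adjusted p-values between 0.027 and 0.048. A p above the threshold does not show that these levels were equal.

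Several of the measured genes lie near Mat1a. In the order of genes in RefSeq GRCm38.p6, Mettl6, Mettl17, Mettl3 and Prmt5 are on chromosome 14, as Mat1a is, with 20, 30, 37 and 45 measured genes between them and it, and so are among its 100 nearest measured genes. Mettl17 and Mettl6 are 2 of the 3 genes called in KO SAMe against WT livers. Of the 100 nearest genes, 11% were called higher and 19% lower in KO SAMe than in WT livers, against 10.5% and 8.25% of named genes on other chromosomes. In KO placebo against WT livers these shares were 18% and 27%, against 21.3% and 21.9%. Without these 4 genes, 5 measured genes were higher and 1 lower in KO SAMe than in KO placebo livers, 3 higher and 9 lower in KO placebo than in WT livers, and 1 higher and 0 lower in KO SAMe than in WT livers. For that last count limma gave 6 lower at an unadjusted p under 0.05, and these counts were added after the data were seen. Whether position near Mat1a has a part in these changes was not tested.

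**Figure D3:**
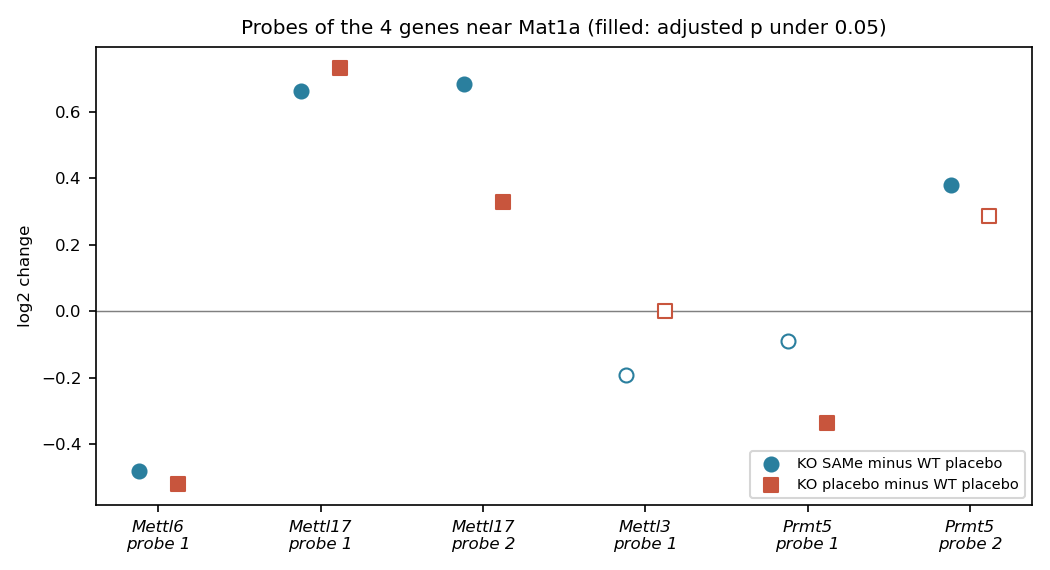
Log2 change (vertical axis) of each probe past the filter of the 4 genes near Mat1a, in order of distance, for KO SAMe minus WT placebo (circles) and KO placebo minus WT placebo (squares); filled symbols have an adjusted p under 0.05. Both Mettl17 probes lie above 0 and the Mettl6 probe below it in both comparisons, and the Prmt5 probes lie on opposite sides of 0.

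The enzymes act with partners, and genes of the partner lists differed between KO placebo and WT livers in both directions. The median changes were 0.30 for partners of the m6A writer listed together with Pcif1, 0.11 for m6A erasers and readers, -0.15 for cap genes, -0.00 for tRNA genes, -0.05 for rRNA genes, -0.05 for arginine methylation partners and 0.09 for carboxyl and lysine methylation, against 0.01 over everything tested. The counts in these lists stand against the 20.4% of all genes and probes called lower and 19.8% called higher in that comparison. Values of these lists, and of the ribosome, proliferation and cell type lists below, come from the main fit alone. They were not read under the alternative settings or with arrays left out. Of the 3 measured partners of the m6A writer, Zc3h13, a scaffold of the complex, was higher in KO placebo than in WT livers (0.73, adjusted p = 8.5e-05, detected on 9 arrays), and Rbm15 (0.12) and Virma (-0.04) did not pass. Pcif1, a separate enzyme that methylates adenosine next to the cap, was also higher (0.48, adjusted p = 0.0024). Of 7 erasers and readers of m6A, 2 (28.6%) were higher, the demethylase Fto (1.18) and the nuclear reader Ythdc1 (0.61, adjusted p = 0.0016). Hnrnpa2b1 was at 0.46 (adjusted p = 0.062). In KO SAMe against KO placebo livers Fto changed by -0.69 (adjusted p = 0.024), Ythdc1 by -0.56 (adjusted p = 0.018), Hnrnpa2b1 by -0.63 (adjusted p = 0.046) and Zc3h13 by -0.68 (adjusted p = 0.0023).

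Of 7 cap methylation genes beside Rnmt, 3 (42.9%) were lower in KO placebo than in WT livers. Cmtr2, which methylates a ribose near the cap, changed by -0.63, the Rnmt activator Ramac by -0.42 (adjusted p = 0.0065) and the capping enzyme Rngtt by -0.39 (adjusted p = 0.0015). Of 9 tRNA methylation partners and other tRNA modifiers, Wdr6, the partner of Ftsj1, was lower (-0.56, adjusted p = 0.00018). Tyw1, which makes wybutosine, was higher (0.33, adjusted p = 0.013, detected on 9 arrays), and Thada was at 0.21 (adjusted p = 0.066). Of 11 genes listed as rRNA methylation partners or other rRNA methylases, 5 (45.5%) were lower. Among them were Mrm3 (-0.65), Tfb2m (-0.58) and Mrm1 (-0.41), which code for mitochondrial proteins. With SAMe, 3 of the 11 (27.3%) were called higher, where 10.8% of everything tested was, among them Mrm3 at 0.62 (adjusted p = 0.007) and Mrm1 at 0.40 (adjusted p = 0.017).

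Of 9 partners and regulators of the arginine methyltransferases, 3 (33.3%) were lower in KO placebo than in WT livers. Coprs and Clns1a, which direct Prmt5 to its substrates, changed by -0.89 and -0.81, and Smn1, a reader of methylated arginine, by -0.30 (adjusted p = 0.043). Clns1a was at 0.46 with SAMe (adjusted p = 0.045). Of 14 genes around carboxyl and lysine methylation, 6 (42.9%) were higher and 2 (14.3%) lower in KO placebo than in WT livers. Farnesyltransferase acts before Icmt on the same proteins, and its subunit Fntb was higher (1.06), while its other subunit Fnta was lower (-0.55, adjusted p = 0.0001). Fnta was higher in KO SAMe than in KO placebo livers (0.48, adjusted p = 0.0045), where Fntb was at -0.25 and did not pass. The scaffold subunit of phosphatase 2A, Ppp2r1a, was at 0.82, and Ppme1, which removes the methyl group that Lcmt1 adds, at 0.84.

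**Figure D4:**
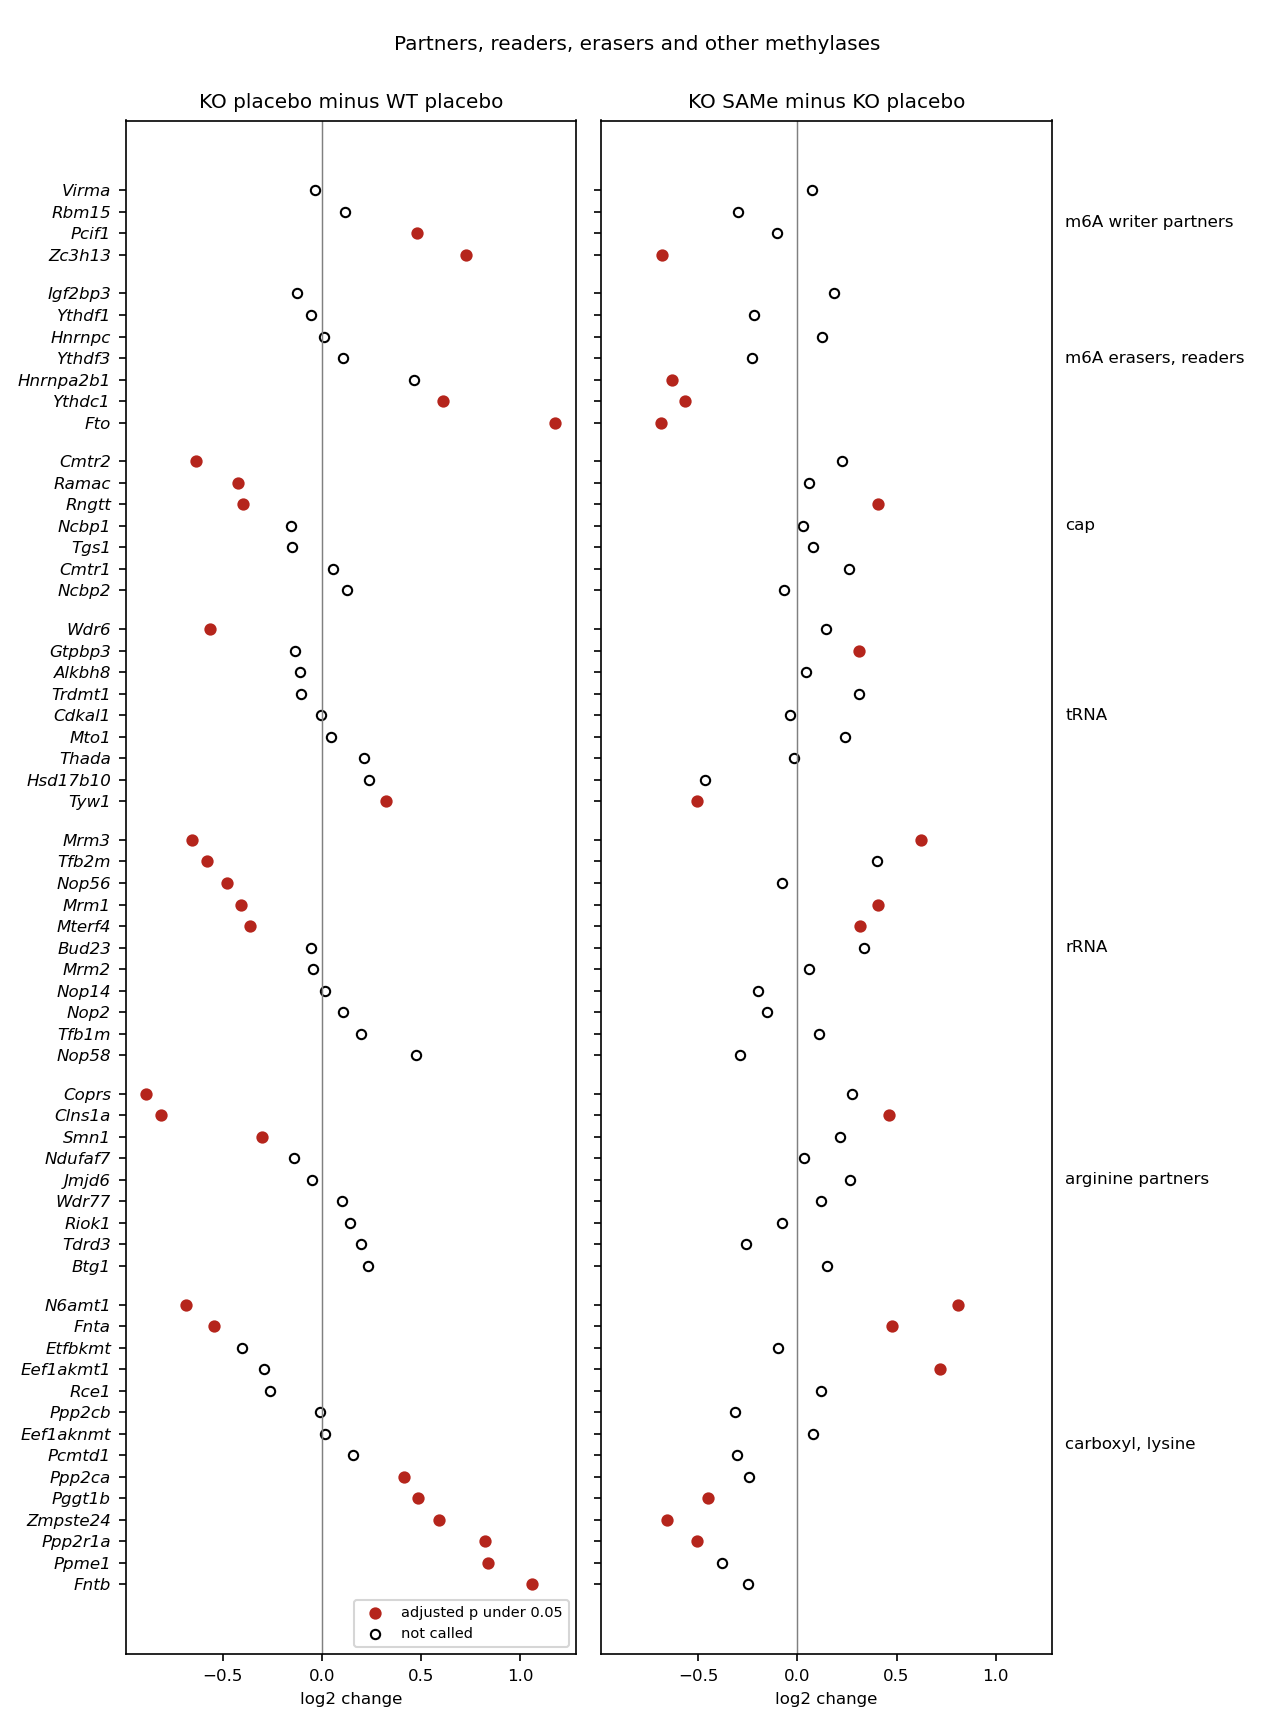
Log2 change (horizontal axes) of partners, readers, erasers and other methylases, grouped by list, in KO placebo minus WT placebo (left) and KO SAMe minus KO placebo (right); filled points have an adjusted p under 0.05. Fto lies at 1.18 on the left and at -0.69 on the right, and Mrm3 at -0.65 and 0.62.

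Ribosome production and cell division are known to draw on several of these enzymes. Of 13 measured ribosome biogenesis genes, 6 (46.2%) were lower and 2 (15.4%) higher in KO placebo than in WT livers, with Pes1 at 1.47, Npm1 at -0.56 and Nip7 at -0.94. Of 9 measured proliferation genes, 4 (44.4%) were lower, among them Rrm2 (-0.63), Rrm1 (-0.28) and Tyms (-0.48). The median changes of these lists were -0.21 and -0.15, against 0.01 over everything tested, of which 20.4% was lower and 19.8% higher.

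Markers of liver cell types were read beside these changes, and their part in them was not tested. The marker counts between the placebo groups stand against the 20.4% of everything tested called lower and 19.8% called higher. Of 8 hepatocyte markers 7 were measured, with 2 higher (Hnf4a 0.98, Trf 0.51) and 1 lower (Alb -0.60) in KO placebo than in WT livers. These 7 were detected on all 19 arrays. Their summed intensity was 34340 to 37240 in KO SAMe, 37510 to 40620 in KO placebo and 31480 to 38510 in WT livers. Of 10 macrophage markers 7 were measured and Clec4f was lower (-0.68), while the other 6 lay above 0 and did not pass (median of the 7 0.20, highest C1qc at 0.57), with sums of 461 to 794.5 in KO SAMe, 508.2 to 921.6 in KO placebo and 505.3 to 1008 in WT livers. Of 7 sinusoidal endothelial markers 5 were measured and 2 were higher, Stab2 (0.74) and Pecam1 (0.37, detected on 9 arrays). Clec4g (-0.26), Fcgr2b (-0.24) and Oit3 (-0.13) did not pass (median of the 5 -0.13). The sums of these markers were 780.6 to 1488 in KO SAMe, 1096 to 1979 in KO placebo and 1303 to 2065 in WT livers. Of 8 stellate cell markers 5 were measured and 3 were higher, with sums of 1589 to 2214 in KO SAMe, 1796 to 2501 in KO placebo and 1293 to 1985 in WT livers.

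Markers also differed in KO SAMe against KO placebo livers, where 10.8% of everything tested was called higher and 7.69% lower. Of the hepatocyte markers, Alb was higher (0.80, adjusted p = 0.012) and Hnf4a lower (-0.61, adjusted p = 0.005). Of the endothelial markers, Stab2 (-0.62, adjusted p = 0.028) and Pecam1 (-0.41, adjusted p = 0.025) were lower, and all 5 lay below 0 (median -0.40). Of the macrophage markers, C1qc was lower (-0.91, adjusted p = 0.032), and 6 of the 7 lay below 0 (median -0.36). Of the stellate markers 0 of 5 passed in limma, with 2 at an unadjusted p under 0.05. The part of these markers in the changes with SAMe was not tested.

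Of 6 cholangiocyte markers 3 were measured and Sox9 was higher (0.77), with sums of 107.8 to 311 in KO SAMe, 124.1 to 179.6 in KO placebo and 76.53 to 142 in WT livers. Krt19, Epcam and Spp1 did not pass the filter. Of 8 lymphocyte markers 3 were measured and 2 were lower, with sums of 61.5 to 79.88 in KO SAMe, 58.81 to 79.95 in KO placebo and 66.8 to 97.84 in WT livers. Of 5 erythroid markers 2 were measured and did not pass the test, with sums of 1022 to 3309 in KO SAMe, 1347 to 3653 in KO placebo and 1273 to 5865 in WT livers. Of 5 adipocyte markers 0 passed the filter, and of 6 pancreatic acinar markers 1 did.

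At the edge of the detection filter, Mettl25 and Trmt44 passed with detection on 5 arrays each. Mettl25 was detected on 1 of 5 KO SAMe, 0 of 6 KO placebo and 4 of 8 WT arrays, and Trmt44 on 2 of 5, 1 of 6 and 2 of 8 of those arrays. Ftsj3, detected on 4 arrays, and Mettl7a1 and Nsun6, detected on 1 array each, did not pass. Of the 41 measured genes, 25 were detected on all 19 arrays, and 6 were detected on under 50% of the arrays of at least 1 group. More than 1 probe past the filter read 17 of them, and the probes of Icmt, Lcmt1, Mettl2, Mettl26, Pcmt1, Prmt5, Prmt7 and Trmt2b did not all give the same call in at least 1 comparison.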

How the data were processed

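Liver RNA of 19 mice was read on 1-colour Illumina BeadChips, 1 array per animal. The authors deposited a raw table of bead intensity for 45281 probes, not background corrected or scaled, with a detection p-value for each probe and array, per the file headers. They also deposited log2 values for 17592 probes. Recomputing these showed log2 raw intensities, quantile normalized, of every probe detected at p under 0.01 by 1 array or more, and an array median of 6.56 throughout. The largest difference was 0.001664. They served as an alternative. Neither scanner software nor genome build is given in the sources used here, and 0 columns were left unmapped.

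The background was removed by normexp in limma 3.58.1 (R 4.3.3), estimated from the detection p-values, with an offset of 16. Quantile normalization and log2 transformation followed, which hides any change shared by most genes. The detection filter kept 14295 probes. Gene names came from the platform annotation, where 14737 probes have 1 symbol and 10 have several, and 8517 of the 8529 named genes past the filter matched RefSeq by identifier. The probe with the highest mean stood for each gene, and 2302 unnamed probes were kept, which gave 10831. Changes of second probes come from a fit over all probes past the filter.

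The 3 comparisons came from 1 two-sided limma fit (lmFit and eBayes) over 19 arrays, with Benjamini-Hochberg adjustment over all 10831 and a threshold of 0.05. It was tested on simulated data with known changes. Values per array are given for genes called with a log2 change of at least 0.5 in size, and from each list of other genes up to 3 with the strongest moderated statistic between the placebo groups. Fnta, Virma, Fcgr2b, Oit3 and the second probes were named after their values were seen. The genes and lists were chosen with earlier results of these data known. Alternatives changed 1 choice at a time: background correction, normalization, filter, probe choice, variance model, background set, ID letter and each array left out.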

Additional observations from a re-analysis of the deposited data

Results flagged for a closer look

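Of 123 groups of arrays (41 genes in 3 groups), 7 held an array whose gap to its nearest neighbour exceeded the 95% limit of Dixon's test, and chance alone gives about 1 in 20. In KO SAMe livers, Emg1 was 6.10 in replicate 1 (next value 5.14), Mettl3 was 6.40 in replicate 2 (next value 5.94) and Trmt1 was 5.58 in replicate 4 (next value 5.21). In KO placebo livers, Icmt was 6.88 in replicate 5 (next value 6.53). In WT livers, Mettl9 was 5.92 (next value 6.50) and Trmt112 was 4.40 (next value 4.70), both in replicate 1, which is the high-background WT array. Mettl1 was 5.33 in WT replicate 3 (next value 5.69). The call of Icmt in both comparisons of KO placebo livers held in each fit that left out 1 array.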

How the results depend on the processing

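In KO placebo against WT livers, 4 genes were higher and 11 lower. The counts were 13 and 3 with scaling to the median of all probes and 2 and 18 with scaling to the probes past the filter. On low-background arrays they were 2 and 4. Of all 10831, these settings called 4012 and 988, 1786 and 4589, and 1000 and 969, against 2148 and 2211 in the main fit. With the ID letter as a term, comparisons of KO placebo livers rest on 1 KO SAMe array of letter G. Their counts are left out. Prmt7 turned to 0.044 with scaling to all probes, or -0.14 relative to the median of all genes. In KO SAMe against KO placebo livers, 5 were higher and 1 lower. Under the scalings and on low-background arrays the counts were 1 and 11, 10 and 1, and 1 and 0. Of all 10831 these called 202 and 3153, 2608 and 884, and 35 and 41, against 1167 and 833 in the main fit. The counts were 6 and 0 with the mean of a gene's probes. With the background block they were 4 and 2, against 521 and 482 of all 10831, and Trmt2b and Lcmt1 no longer passed. In KO SAMe against WT livers, 2 were higher and 1 lower. Under the scalings and on low-background arrays the counts were 1 and 1, 2 and 2, and 2 and 0. With the ID letter as a term they were 1 and 0. Of all 10831 these called 626 and 784, 750 and 990, 868 and 746, and 770 and 591, against 1028 and 876 in the main fit. The counts were 4 and 3 with the mean of probes, and 2 and 2 with the background block, the authors' values or an offset of 50. They were 2 and 0 without a filter, and 1 and 0 without the genes near Mat1a. The cause of these differences was not tested. Where 0 genes passed in limma in a direction given above, 2 to 7 had an unadjusted p under 0.05 in it. Leaving out 1 array gave 2 to 4 higher and 9 to 14 lower, 5 to 6 higher and 1 to 2 lower, and 2 to 3 higher and 1 to 3 lower in the 3 comparisons. No paired analysis was made, because each array is a different mouse and the labels name no pairs. The replicate numbers used here are not in the labels and follow the order of the samples. Signal over background limits the dim probes, and 6 of 41 genes were detected by fewer than 50% of arrays in at least 1 group.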
